A study of Mus musculus with 85 samples.

Results

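The genes described here encode the collagens, the laminin chains and their basement-membrane partners. They comprise every gene named Col with a chain number, every Lama, Lamb and Lamc gene, Nid1, Nid2 and Hspg2 (nidogens and perlecan), and the matrix glycoproteins Sparc and Fn1. By symbol, 57 of the 18194 genes on the array qualified, of which 42 are collagens and 10 are laminin chains, and each was read on the brightest of its probe sets. Their values were followed per cell across 5 sorted populations of mouse embryonic cells on the route from the vessel wall to the blood stem cell. From the caudal part of E10.5 embryos came plain endothelium (EC, 7 cells) and hemogenic endothelium (HEC, 7 cells), both from embryos carrying eR1-GFP, a reporter driven by a Runx1 enhancer. Both were sorted as CD31+ Ter119- CD45- CD41-, with EC GFP-negative and HEC GFP-positive. Hematopoietic cluster cells were c-Kit+ CD31+ CD45+ SSEA1- cells of wild-type embryos, 28 from the caudal part at E10.5 and 16 from the aorta-gonad-mesonephros at E12.5. Fetal liver hematopoietic stem cells (FL HSC) were wild-type E14.5 cells sorted for c-Kit, Sca-1, CD150 and Mac-1 and against CD48 and lineage markers. Of these, 27 were deposited and 26 are counted, since cells 20 and 21 correlated at 0.991 over all probe sets (the next closest pair of arrays reached 0.859) and were averaged.

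The basement membrane is a thin sheet of matrix under the endothelium. A network of laminin heterotrimers, each of an alpha, a beta and a gamma chain, is joined through nidogens and perlecan to a network of type IV collagen, while fibronectin forms fibrils that developing vessels adhere to by integrins. Hematopoietic clusters bud from hemogenic endothelium into the lumen of the aorta, away from this sheet.

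All tissues were dissociated with collagenase before sorting, and each cell was amplified and hybridised alone to an Affymetrix array, with values on the log2 scale. A value over 5 counted as above background. As each sample is 1 cell and no animal or litter is named, a population counts as 1 sample. No test was possible, SDs give the spread over cells, and a difference is that of the population means on the log2 scale, called higher or lower from 1 unit on. The arrays differed in yield, with 5905 ± 1447 probe sets above background in EC, 7712 ± 765 in HEC, 9943 ± 897 in the E10.5 clusters, 7820 ± 1755 in the E12.5 clusters and 6552 ± 884 in FL HSC (SD). Of 20 pan-endothelial markers, the median cell had 16 in EC, 19 in HEC, 4 in the E10.5 clusters, 1.5 in the E12.5 clusters and 5.5 in FL HSC. The cells that went against their sorted identity were EC cell 3, with Dppa3 (14.59) and Pou5f1 (13.96) of germ cells and no Cdh5, E12.5 cluster cells 3, 6 and 10, with the macrophage gene C1qb (15.69, 15.59 and 15.88), and FL HSC cells 5 and 7, with the sinusoidal endothelial gene Lyve1 (15.05 and 14.73). Mesenchymal and mural cells, the other main matrix makers of these tissues, were sought with 14 markers, of which 0 were above background in EC and 1 in HEC, 3 in the E10.5 clusters, 3 in the E12.5 clusters and 2 in FL HSC, never more than 1 in a cell. The summed level of these 14 markers ran from 33.69 to 36.50 in EC, 33.53 to 42.59 in HEC, 32.88 to 44.42 in the E10.5 clusters, 32.67 to 45.36 in the E12.5 clusters and 33.50 to 43.36 in FL HSC.

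The matrix genes were above background mainly in the endothelial populations. Above background per cell were 11.6 ± 2.82 of the 57 genes in EC (range 7 to 15), 13.7 ± 2.21 in HEC (10 to 16), 3.57 ± 2.63 in the E10.5 clusters (1 to 10), 2.13 ± 1.15 in the E12.5 clusters (0 to 5) and 5.04 ± 2.52 in FL HSC (2 to 13). Without Hspg2 and Col16a1, whose probe sets are flat near the threshold, the means were 10.7 in EC, 13 in HEC, 2.68 in the E10.5 clusters, 1.06 in the E12.5 clusters and 3.92 in FL HSC. The lowest EC count was that of cell 3, the HEC counts began where those of the E10.5 cluster cells ended, and no E12.5 cluster cell reached the range of EC. The order of yield was different, with the most probe sets above background in E10.5 cluster cells. However, HEC exceeded EC, and E10.5 exceeded E12.5 cluster cells, both in yield and in these counts. What yield contributes to the counts was not tested. In E10.5 cluster cells 3.51% of the 57 genes were above background in at least 50% of cells, where 33.2% of all genes were. In HEC the corresponding shares were 19.3 and 24.2%, and in EC 21.1 and 15.9%.

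**Figure D1:**
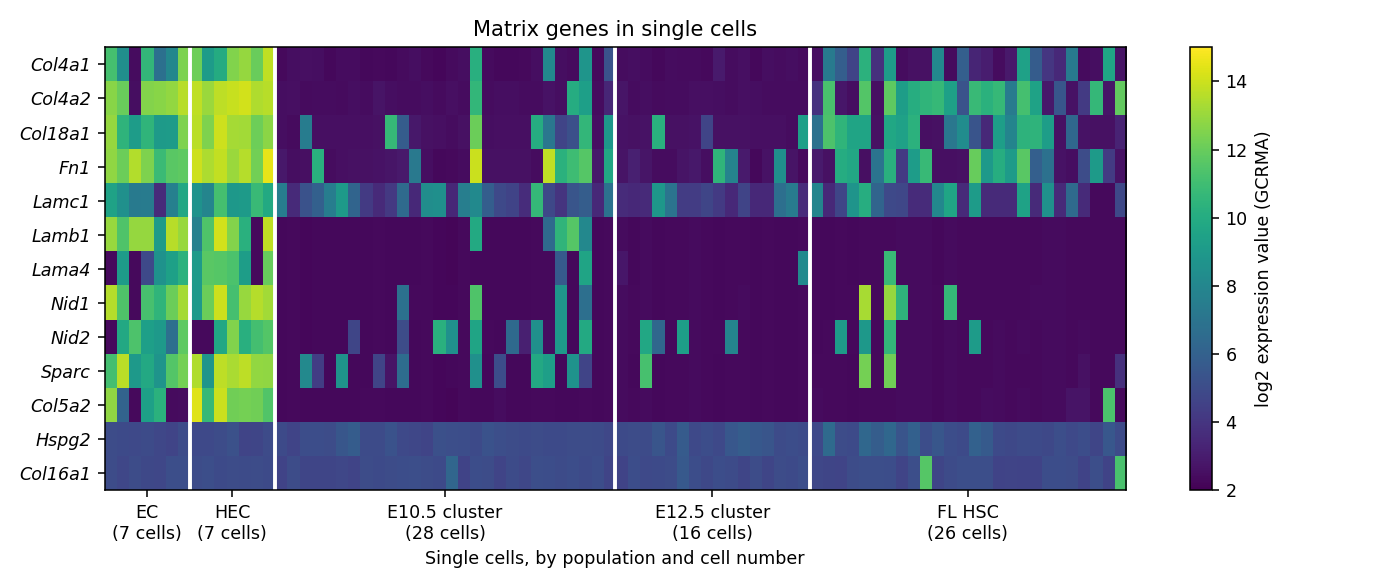
Log2 expression value (colour) of the 13 genes above background in at least 50% of the cells of some population (rows) in each single cell (columns, grouped by population). Most endothelial columns are bright for the genes other than Hspg2 and Col16a1, which stay near 5 in most cells, and FL HSC show scattered bright cells for Col4a1, Col4a2, Col18a1 and Fn1.

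Of the 57 genes, 35 were above background in at least 1 cell and 22 in none, with 4.59 the highest value among the 22. The silent genes include the fibrillar collagen genes Col1a1 and Col2a1, the type VI collagen genes Col6a1, Col6a2 and Col6a3, the anchoring-fibril gene Col7a1, the short-chain collagen genes Col8a1, Col8a2 and Col10a1, the type IV genes Col4a3 and Col4a4, and the laminin genes Lamb3 and Lamc3. A value at the floor of a probe set does not show that the RNA is absent. The 13 genes in at least 50% of the cells of some population are described in turn, and the other 22 that were seen at all are given after them.

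Col4a1 and Col4a2 encode the alpha chains of the most widespread type IV collagen heterotrimer. They lie head to head on chromosome 8 and are known to share a promoter region, which is shown because both genes follow the same course in the vessel wall and part in FL HSC. The windows of 250 bases before to 50 after the annotated starts (RefSeq, GRCm38.p6) are chr8:11312777-11313076 on the minus strand for Col4a1 and chr8:11312555-11312854 on the plus strand for Col4a2, each given 5′ to 3′. Capitals mark the 78 bases that the windows share, each the reverse complement of the other.
Col4a1: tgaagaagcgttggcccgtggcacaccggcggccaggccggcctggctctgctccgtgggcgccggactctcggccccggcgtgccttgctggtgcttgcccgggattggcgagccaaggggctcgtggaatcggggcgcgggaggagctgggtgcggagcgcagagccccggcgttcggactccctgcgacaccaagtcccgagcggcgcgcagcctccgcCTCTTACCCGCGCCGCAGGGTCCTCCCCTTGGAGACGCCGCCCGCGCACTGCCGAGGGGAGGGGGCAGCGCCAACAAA
Col4a2: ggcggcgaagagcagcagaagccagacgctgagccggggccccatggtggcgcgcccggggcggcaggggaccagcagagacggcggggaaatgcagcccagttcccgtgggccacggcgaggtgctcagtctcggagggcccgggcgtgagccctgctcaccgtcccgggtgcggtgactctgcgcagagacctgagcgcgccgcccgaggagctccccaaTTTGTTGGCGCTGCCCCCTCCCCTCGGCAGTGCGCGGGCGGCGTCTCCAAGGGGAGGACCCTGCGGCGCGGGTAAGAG
The annotated starts lie 21 bases apart, inside the shared stretch. That stretch holds 1 match to the GC box GGGCGG, read on both strands, and none to the CCAAT box, to the TATAAA box or to the Ets-type core CCGGAA. The whole Col4a1 window holds 1 GC box and 1 CCAAT box and the whole Col4a2 window 3 GC boxes and 1 CCAAT box, with 0 of the other motifs in either. Of the 32851 RefSeq promoter windows, each as long as these whole windows, 35.7% hold the GC box, 37.4% the CCAAT box, 13.6% the TATAAA box and 14.9% the Ets-type core. GC content was 74.0% in the Col4a1 window and 73.7% in the Col4a2 window, against a median of 52.7% over all windows.

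Col4a2 ran from 13.04 through a median of 13.68 to 14.10 in the 7 HEC, and from 2.46 through 12.68 to 13.58 in the 7 EC. The ranges overlapped, and the low EC value was that of cell 3, the cell with germ-cell genes. The difference between the means was 2.37 with that cell and 0.90 without it, so the call rests on it. Col4a1 ran from 9.12 through 12.11 to 13.74 in HEC and from 2.44 through 8.44 to 12.44 in EC, again overlapping, with a difference of 3.22, and of 2.20 without EC cell 3. On its other probe set the means were 9.63 in HEC and 8.84 in EC, less than 1 unit apart, with 6 HEC above background. In cluster cells both genes were mostly at the floor. Col4a2 ran from 2.39 through a median of 2.46 to 10.63 in the 28 E10.5 cluster cells, below every HEC, and Col4a1 from 2.25 through 2.37 to 10.22, with only cell 17 inside the range of HEC. The differences to HEC were -10.34 for Col4a2 and -8.59 for Col4a1. Col4a2 was above background in 3 E10.5 cluster cells and Col4a1 in 4, and in the 16 E12.5 cluster cells both were so in 0, which allows a share of up to 18.8% of cells (for a count of 0 the limit is taken throughout as 3 cells of the population).

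In FL HSC the pair was above background in unequal shares of cells. Col4a2 ran from 2.50 through 9.43 to 11.88 and was above background in 18 of 26 cells, 69.2% (exact Clopper-Pearson 95% interval 48.2 to 85.7%, covering counting error over cells only, as do the intervals given for other shares above 0). Col4a1 ran from 2.36 through 3.64 to 10.36 and was above background in 10 of 26 cells, 38.5% (20.2 to 59.4%). Both ranges began within that of the E12.5 cluster cells and ended far above it, and the differences of the means to E12.5 cluster cells were 5.28 for Col4a2 and 2.43 for Col4a1. Both genes were above background together in 7 FL HSC, Col4a2 alone in 11, Col4a1 alone in 3 and neither in 5. On their brightest probe sets, both genes were above background in 7 of 7 HEC, and in 6 of 7 EC with neither in cell 3. The lower share of FL HSC with Col4a1 is a comparison of different probe sets, whose sensitivity may differ. Without FL HSC cells 5 and 7, the shares were 66.7% for Col4a2 and 33.3% for Col4a1.

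Col18a1, which encodes the type XVIII collagen of vessel basement membranes and the parent of the angiogenesis inhibitor endostatin, ran from 12.12 through 13.21 to 13.99 in HEC and from 9.07 through 10.45 to 12.92 in EC. Most HEC lay above most EC, with a difference of 2.52, and of 1.00 after quantile normalization. In E10.5 cluster cells it ran from 2.39 through 2.56 to 12.08, below every HEC, with cell 17 just short of the lowest, and the difference was -8.49. It was above background in 9 E10.5 cluster cells and 2 E12.5 cluster cells (4 and 16, at 10.27 and 9.34). In FL HSC it ran from 2.54 through 7.52 to 11.35 and was above background in 17 of 26 cells, 65.4% (44.3 to 82.8%), a difference to E12.5 cluster cells of 3.19. On its other probe set the contrast was smaller. There 6 of 16 E12.5 cluster cells and 16 of 26 FL HSC were above background, with means of 4.45 and 6.09.

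Fn1, the gene of fibronectin, was above background in every EC and HEC. It ran from 12.23 through 13.55 to 14.52 in HEC and from 10.84 through 12.07 to 13.51 in EC, with wide overlap and a difference of 1.34, which fell short of 1 unit when arrays were scaled to an equal median (0.37) or quantile-normalized (0.28). In E10.5 cluster cells its values were split, with a median of 2.59 in a range of 2.26 to 13.97, and 8 of 28 cells were above background, of which cells 17 and 23 (13.97 and 13.74) were as high as HEC. The difference to HEC was -8.54. In E12.5 cluster cells 3 of 16 were above background, and in FL HSC 15 of 26, 57.7% (36.9 to 76.6%), in a range of 2.47 to 11.97 with a median of 6.39. The difference of FL HSC to E12.5 cluster cells was 2.63. Col4a2, Col18a1 and Fn1 were above background together in 6 EC, 7 HEC, 3 E10.5 cluster cells, 0 E12.5 cluster cells and 7 FL HSC. In FL HSC 1 cell had none of the 3.

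**Figure D2:**
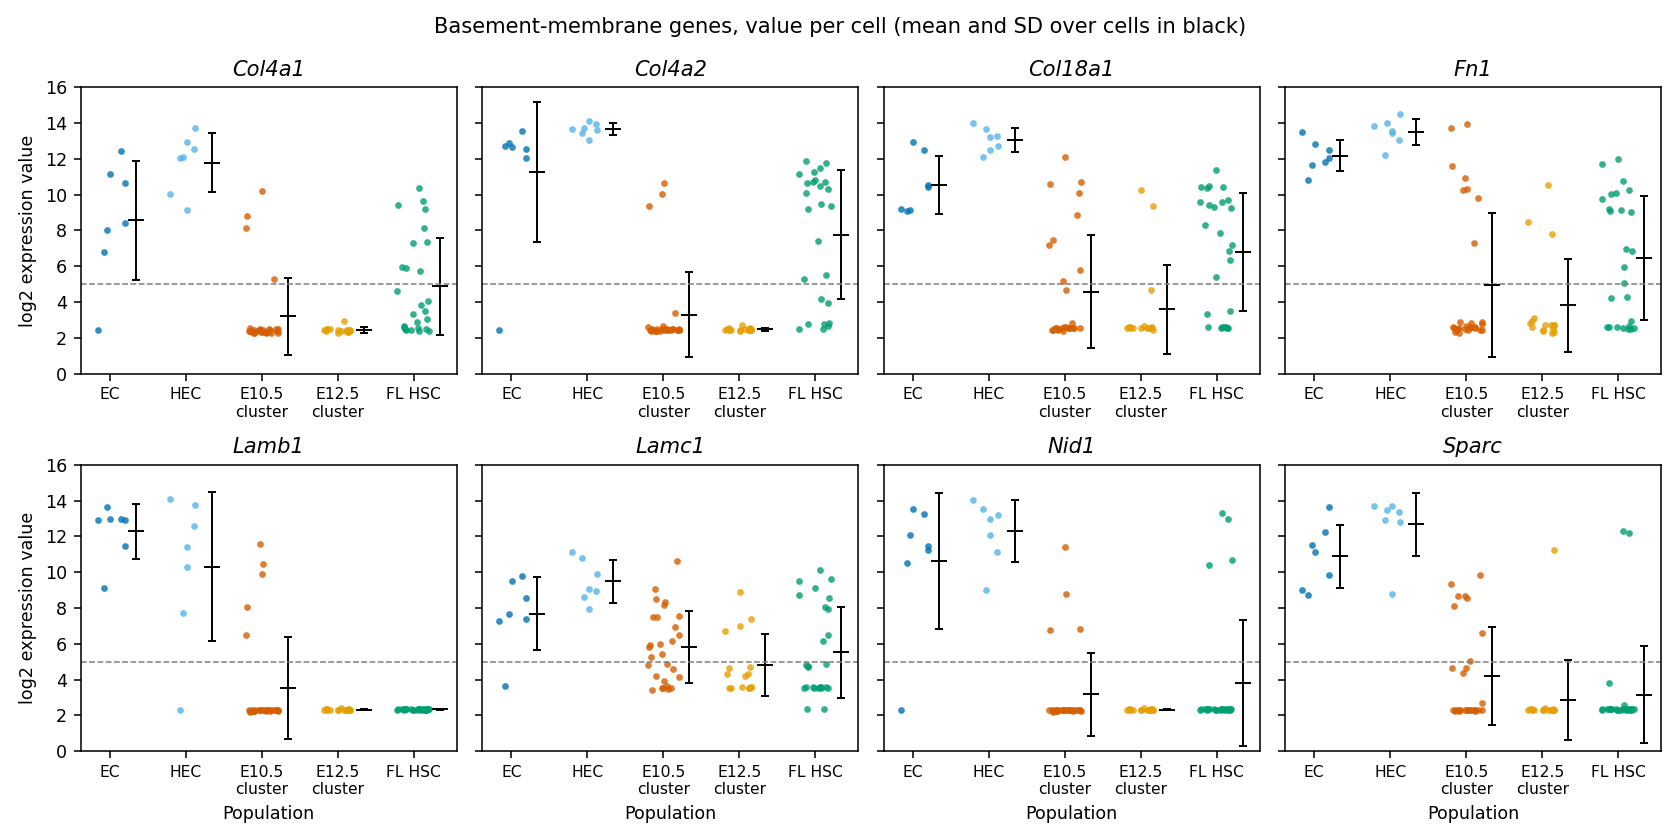
Log2 expression value (vertical axis) of 8 genes in every cell of the 5 populations (points, spread sideways for legibility), with the mean and SD over cells in black and the background threshold of 5 dashed. Col4a1, Col4a2, Col18a1 and Fn1 have many FL HSC above the line, whereas Lamb1 has 0 of 26 and Sparc 2 of 26.

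Of the 10 laminin chains, 6 were lower in E10.5 cluster cells than in HEC and 0 higher. Over all genes, 10.1% were lower and 25.3% higher. Among the 6, Lama3, Lama5 and Lamb2 were above background in only 2 or 3 HEC. Lamc1 was the chain above background in the most cluster cells and FL HSC. Lamb1, the main laminin beta chain of the embryo, ran from 2.33 through 11.42 to 14.11 in HEC and from 9.11 through 12.92 to 13.62 in EC. The ranges overlapped, and the mean was lower in HEC with a difference of -1.97, which came to -0.64 without HEC cell 6, the cell at 2.33. Lamb1 was above background in 5 E10.5 cluster cells (6.51 to 11.58), with a difference to HEC of -6.78, in 0 E12.5 cluster cells and in 0 of 26 FL HSC, which allows a share of up to 11.5%. Lamc1, the gamma chain of most laminins, ran from 7.93 through 9.07 to 11.15 in HEC and from 3.62 through 7.67 to 9.81 in EC, with overlap and a difference of 1.80 that turned to -0.44 after quantile normalization. Above background were 16 of 28 cells of the E10.5 clusters (57.1%, 37.2 to 75.5%), 4 of 16 E12.5 cluster cells and 10 of 26 FL HSC, and the difference of E10.5 cluster cells to HEC was -3.66. Of these values 19 of 84 lay between 4 and 6, so its counts move with the threshold more than those of the other laminins.

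Lama4, the laminin alpha chain typical of endothelium, ran from 2.33 through 11.31 to 11.99 in HEC and from 2.32 through 8.63 to 10.36 in EC, above background in 6 HEC and 4 EC. The difference was 2.87, and 4.08 without HEC cell 6. In cells sorted as blood cells Lama4 was above background in 2 E10.5 cluster cells (24 and 26), 1 E12.5 cluster cell (16) and 1 FL HSC (7). FL HSC 7 is a cell with sinusoidal endothelial genes. The difference of E10.5 cluster cells to HEC was -6.93. An alpha, a beta and a gamma chain together (Lama4, Lamb1 and Lamc1) were above background in 3 EC, 6 HEC, 1 E10.5 cluster cell, 0 E12.5 cluster cells and 0 FL HSC. The other alpha chains were rare. Lama5, the second endothelial alpha chain, was above background in 3 HEC (1, 4 and 7) and 0 EC, with a difference of 2.83, and in 1 E12.5 cluster cell and 2 FL HSC. Lama3, known from epithelia, was above background in HEC 2 and 7 (difference 2.30), in E10.5 cluster cell 23 (10.34) and in FL HSC 14 (9.93). Lama2, the muscle-type alpha chain, was above background in HEC 4 alone (5.91), and Lama1, the early embryonic alpha chain, in EC 7 alone (difference -1.43). The beta chain Lamb2 was above background in HEC 2 and 7 (difference 2.32) and in 5 FL HSC (7, 10, 11, 17 and 19, from 6.40 to 9.78). The highest of these was FL HSC 7. Lamb1 was above background in 0 FL HSC, but these genes were read on different probe sets, whose sensitivity may differ.

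The nidogens bridge laminin and type IV collagen. Nid1 ran from 9.01 through 12.99 to 14.01 in HEC and from 2.33 through 11.44 to 13.56 in EC, with overlap. The difference was 1.66, and 0.28 without EC cell 3. It was above background in 4 E10.5 cluster cells, 0 E12.5 cluster cells and 4 FL HSC, with a difference of E10.5 cluster cells to HEC of -9.11. The 4 FL HSC were cells 5, 7, 8 and 12 (13.32, 12.95, 10.43 and 10.67), and the mean difference of FL HSC to E12.5 cluster cells, 1.47, was 0.70 without the 6 cells that go against their identity. Nid2 ran from 2.33 through 10.19 to 12.54 in HEC and from 2.35 through 9.34 to 11.78 in EC, with a difference of -0.10 that ran from -1.15 to 0.93 as single cells were left out. It was above background in 8 E10.5 cluster cells, 4 E12.5 cluster cells and 4 FL HSC. Of the 4 E12.5 cells 3 were the macrophage-type cells 3, 6 and 10 (9.77, 9.33 and 7.88), and of the 4 FL HSC 2 were cells 5 and 7 (8.94 and 10.59). What those cells' identity contributes was not tested.

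Hspg2, the gene of the heparan sulfate proteoglycan perlecan, shows how the choice of probe set bears on these values. On its brightest probe set it averaged 4.89 ± 0.13 in EC, 4.90 ± 0.19 in HEC, 5.03 ± 0.22 in the E10.5 clusters, 5.20 ± 0.33 in the E12.5 clusters and 5.31 ± 0.54 in FL HSC (SD), and 80 of 84 cells lay between 4 and 6. That probe set was flat near the threshold, so its count of cells above background says little. On the other probe set, perlecan averaged 6.58 ± 2.97 in EC, 9.69 ± 2.36 in HEC, 2.29 ± 0.03 in the E10.5 clusters, 2.32 ± 0.03 in the E12.5 clusters and 2.66 ± 1.64 in FL HSC, above background in 4, 7, 0, 0 and 1 cells. The difference of HEC to EC was then 3.12 and that of E10.5 cluster cells to HEC -7.40. Col16a1, a fibril-associated collagen, was likewise flat, with 81 of 84 cells between 4 and 6, apart from FL HSC cells 10 and 27 at 11.58 and 11.28.

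**Figure D3:**
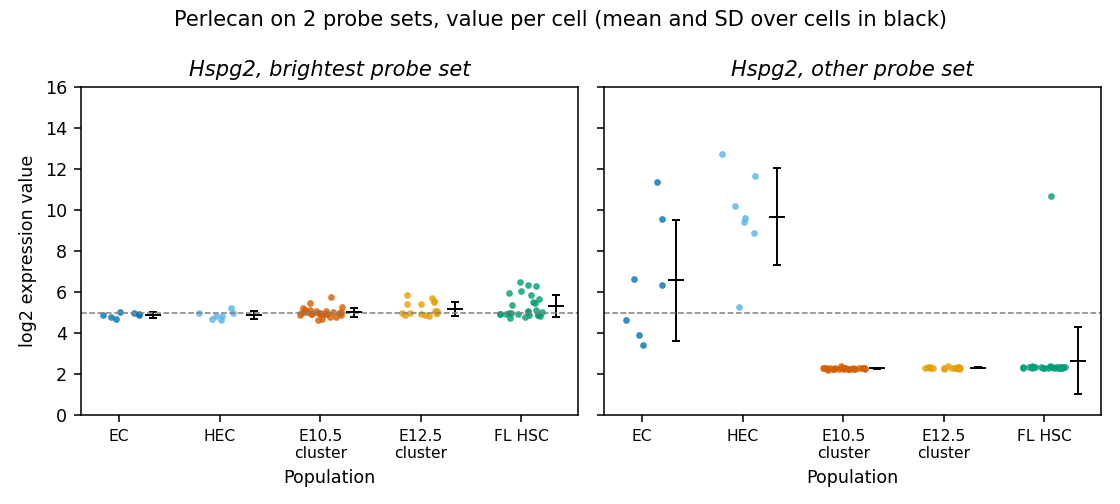
Log2 expression value (vertical axis) of perlecan in every cell (points, spread sideways), on the brightest of its probe sets (left) and on its other probe set (right), with the mean and SD over cells in black and the threshold of 5 dashed. The left panel stays near 5 in all populations, and on the right 7 of 7 HEC and 4 of 7 EC but 0 cluster cells lie above the line.

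Sparc, a matricellular collagen-binding protein, ran from 8.79 through 13.35 to 13.72 in HEC and from 8.74 through 11.14 to 13.64 in EC, with overlap and a difference of 1.80. Among E10.5 cluster cells 8 of 28 had it above background (highest 9.86), with a difference to HEC of -8.47, and in E12.5 cluster cells in cell 3 alone, a macrophage-type cell, at 11.23. In FL HSC it was above background in 2 of 26, cells 5 and 7 with the sinusoidal genes, at 12.30 and 12.19. Outside that pair of cells, 0 FL HSC had Sparc above background on this probe set. On another of its probe sets 3 of 26 FL HSC and 0 of 16 E12.5 cluster cells were above background. Col5a2, a chain of the fibrillar type V collagen, was above background in all 7 HEC, from 10.73 through 12.20 to 14.36, and in 4 of 7 EC, from 2.32 through 6.13 to 12.82. The ranges overlapped, and the difference was 5.92. On the other Col5a2 probe set only 2 HEC and 1 EC were above background, with means of 3.73 and 2.99. Of the E10.5 cluster cells 0 of 28 were above background, which allows up to 10.7%, as were 0 E12.5 cluster cells and 1 FL HSC (11.33), and the difference of E10.5 cluster cells to HEC was -10.16. Col3a1, its neighbour on chromosome 1 and a fibrillar chain of vessel walls, was above background in HEC cell 3 alone.

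The remaining genes seen at all were in few cells each. Col15a1, the second multiplexin collagen, was above background in EC 2, 4 and 7 (7.94, 8.72 and 8.90) and HEC 3 (5.43), with a difference of HEC to EC of -2.21. Among fibrillar chains, Col5a1 was seen in EC 1 (11.46), HEC 3 (8.77) and FL HSC 9 (12.05), Col1a2 in EC 1 (9.51), Col11a1 in HEC 6 (11.51), Col3a1 (11.46) and Col27a1 (8.53) in HEC 3, Col11a2 in 1 E10.5 cluster cell and 3 FL HSC, and Col5a3 in 1 FL HSC. Of the other type IV chains, Col4a5 was seen in HEC 5 (8.98) and 3 E10.5 cluster cells (7, 18 and 28), and Col4a6 in HEC 1 (7.64). Transmembrane collagens appeared in cells sorted as blood cells as well, partly in FL HSC 5 and 7, which went against their sorted identity. Col17a1 was above background in FL HSC 3, 5 and 7 (10.30, 10.50 and 10.31) and E12.5 cluster cell 7 (7.97). Col13a1 was seen in EC 1, HEC 7 and FL HSC 5 and 7, and Col23a1 in EC 1 and 7, HEC 4, E10.5 cluster cell 14 and FL HSC 4. Col6a4, Col9a3, Col20a1 and Col26a1 were each above background in 1 cell.

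HEC and EC were sorted apart by the reporter. Of the 57 genes, 27 were above background in some HEC and 19 in some EC. Higher in HEC by at least 1 unit were 14 of 57 genes, 24.6%, where 27.7% of all genes were, and lower were 5 of 57, 8.77%, where 4.73% of all genes were. The share that was higher was thus near that of all genes, and the median difference was -0.03 for the 57 genes and -0.03 for all genes. The HEC arrays also had more probe sets above background, and the part of that in these counts was not tested. Scaling changed the split, to 8 higher and 30 lower genes with arrays set to an equal median (all genes 15.7 and 53.0%) and to 9 higher and 8 lower with quantile normalization (all genes 15.5 and 14.8%). Col5a2, Col4a1, Lama4 and Col18a1 had the largest positive differences among the 13 genes described, and all 4 pairs of ranges overlapped. On the other probe sets of Col5a2 and Col4a1, the means of HEC and EC were less than 1 unit apart.

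Between HEC and cluster cells at E10.5 the differences of at least 1 unit were all in a single direction. Lower in E10.5 cluster cells than in HEC were 17 of 57 genes, 29.8%, where 10.1% of all genes were, and higher were 0 of 57, where 25.3% of all genes were. The 17 were the 11 described genes other than Hspg2 and Col16a1, with differences of -3.66 to -10.34, and Lama5, Lamb2, Lama3, Col3a1, Col11a1 and Col13a1. The latter genes differed by -1.09 to -2.93 and were above background in only 1 to 3 of 7 HEC each. With the mean of all probe sets of a gene, some differences were smaller, such as -1.85 for Lamc1 and -4.28 for Fn1. The other probe sets of Fn1, Lama4 and Lamc1 were above background in 0 EC and 0 HEC. The median over all 57 was -0.08, against -0.04 for all genes, and most of the 57 lay near the floor in both populations. The count of lower genes was 14 with arrays set to an equal median and 18 with quantile normalization, against 6.90 and 14.8% of all genes, with 0 higher in each case against 33.0 and 16.4%.

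**Figure D4:**
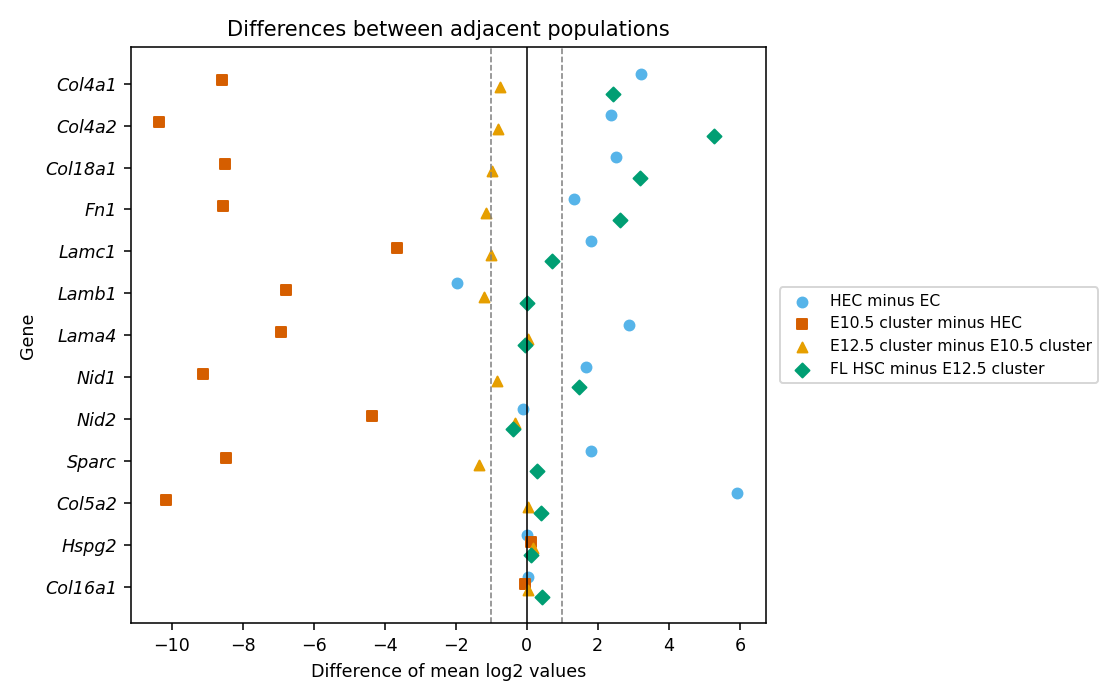
Difference of mean log2 values (horizontal axis) between adjacent populations for the 13 genes described (rows), with dashed lines at 1 unit either way. Between E10.5 cluster cells and HEC 11 genes lie far to the left, and in that of FL HSC with E12.5 cluster cells Col4a1, Col4a2, Col18a1, Fn1 and Nid1 lie to the right of the upper line.

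Between cluster cells of E12.5 and E10.5 few of these genes were left to differ. Lower at E12.5 were Fn1 (-1.15), Lamb1 (-1.22), Lamc1 (-1.01) and Sparc (-1.34), 4 of 57 or 7.02%, where 23.5% of all genes were lower, and higher were 0, where 3.27% of all genes were. Above background were Fn1 and Sparc in 8 of 28 E10.5 cells each, Lamb1 in 5 and Lamc1 in 16. Without E10.5 cluster cells 17 and 26, Sparc (-1.15) was the 1 gene that remained beyond 1 unit, and Fn1 (-0.55), Lamb1 (-0.80) and Lamc1 (-0.92) did not. After quantile normalization 3 genes were higher and 1 lower, against 10.0 and 11.2% of all genes, and Lamc1 differed by 0.98 in the other direction.

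In FL HSC set against E12.5 cluster cells, 5 of 57 genes were higher, 8.77%, where 4.65% of all genes were, and 0 were lower, where 21.7% of all genes were. The 5 were Col4a2 (5.28), Col18a1 (3.19), Fn1 (2.63), Col4a1 (2.43) and Nid1 (1.47). After quantile normalization 10 were higher and 0 lower, against 10.6 and 11.4% of all genes, and without the 6 cells that go against their identity 4 were higher. Set against E10.5 cluster cells, FL HSC were higher by 4.46 for Col4a2, 2.22 for Col18a1, 1.67 for Col4a1 and 1.49 for Fn1, and lower for Lamb1 (-1.20) and Sparc (-1.05). The 2 comparisons share the FL HSC. Liver cells were looked for with 8 hepatocyte markers on the array, of which 2 were above background in any FL HSC and Alb in 0.

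The number of matrix genes in a cell was set beside the number of endothelial genes in it. The genes counted were the 11 described ones without the flat Hspg2 and Col16a1. Each was chosen as above background in at least 50% of the cells of some population, in most cases only EC or HEC. The gap in these counts between endothelial and other cells is thus partly set by that choice. The median cell had 10 of the 11 in EC (range 6 to 11), 11 in HEC (9 to 11), 1 in the E10.5 clusters (0 to 9), 1 in the E12.5 clusters (0 to 3) and 3 in FL HSC (1 to 8). None was present in 5 E10.5 cluster cells and 7 E12.5 cluster cells, while every FL HSC had at least 1. E10.5 cluster cells 17 and 26 had 9 of the 11, with 13 and 10 of the 20 endothelial markers. Across the 28 E10.5 cluster cells the 2 counts correlated at Pearson 0.78 and Spearman 0.61, and at 0.56 and 0.50 without the 2 cells farthest from the median. In the E12.5 clusters they were 0.03 and 0.04, in HEC -0.11 and -0.03, and in EC 0.89 and 0.57, or 0.24 and 0.34 without the 2 farthest cells. The count of matrix genes and the number of probe sets above background correlated at -0.84 and -0.81 in EC, 0.04 and 0.06 in HEC, -0.19 and -0.16 in the E10.5 clusters, 0.45 and 0.38 in the E12.5 clusters and -0.01 and -0.03 in FL HSC. All of these counts come from the same array of each cell. Cdh5, the endothelial cadherin, was above background in 5 E10.5 cluster cells (12, 17, 23, 26 and 28), which had 1, 9, 5, 9 and 4 of the 11 genes, and the other 23 had 0 to 6 with a median of 1.

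Across the 26 FL HSC the correlations of matrix with endothelial genes were 0.68 and 0.25, which rested on cells 5 and 7 (7 and 8 of the 11 genes, 16 and 18 of the 20 markers), since without them they were -0.08 and 0.02. Col4a1, Col4a2, Lamb1, Lamc1 and Nid1, chains of both networks and of their bridge, were all above background in 5 EC, 6 HEC, 2 E10.5 cluster cells, 0 E12.5 cluster cells and 0 FL HSC.

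**Figure D5:**
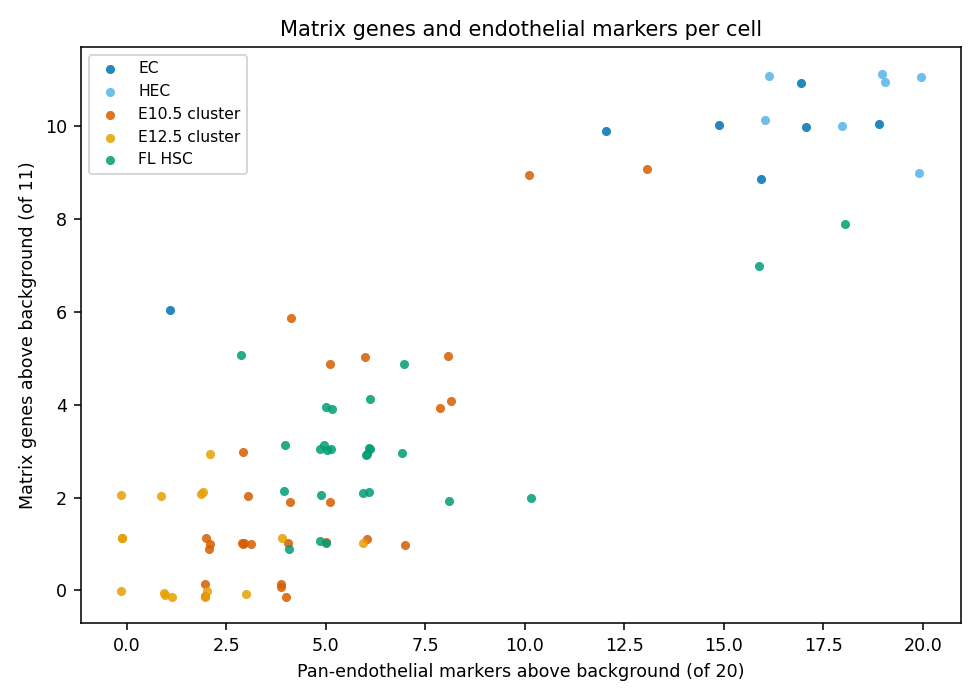
Number of the 11 matrix genes above background (vertical axis) against number of the 20 pan-endothelial markers above background (horizontal axis), 1 point per cell, with a small random shift so that points do not hide each other. EC and HEC sit at the upper right except EC cell 3, E10.5 cluster cells 17 and 26 and FL HSC cells 5 and 7 lie apart from the rest of their populations, and E12.5 cluster cells sit at the lower left. The 11 genes were chosen by the same calls, mostly through EC or HEC, which partly sets the high position of these populations.

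Genes that serve these proteins were read from lists of companions. Of 22 genes of collagen and laminin biosynthesis on the array, 3 were higher (13.6%) and 7 lower (31.8%) in E10.5 cluster cells than in HEC, where 25.3% of all genes were higher and 10.1% lower. Serpinh1, the collagen chaperone, averaged 4.81 ± 3.28 in E10.5 cluster cells and 14.21 ± 0.50 in HEC, a difference of -9.40, and Pxdn, the peroxidase that cross-links type IV collagen, 3.46 ± 2.71 in E10.5 cluster cells and 11.55 ± 1.49 in HEC, a difference of -8.09 (SD, n = 28 and 7). Bmp1, a procollagen protease, was lower with a difference of -4.87, whereas P4ha1, a prolyl hydroxylase subunit, was higher by 2.95 and Mia3, which helps to export collagen, by 1.39. In HEC against EC 10 of the 22 were higher (45.5%) and 2 lower (9.09%), where 27.7% of all genes were higher and 4.73% lower. Among them were Crtap (3.79), Plod1 (3.59) and Plod2 (3.21), which take part in collagen hydroxylation, and Mia3 (-1.14).

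Of 28 matrix receptors, 4 were higher (14.3%) and 8 lower (28.6%) in E10.5 cluster cells than in HEC, against the same 25.3 and 10.1% of all genes. Itga4, an integrin subunit that binds fibronectin, averaged 9.49 ± 2.46 in E10.5 cluster cells and 2.42 ± 0.09 in HEC, a difference of 7.06, Itgb3 was higher by 5.35 and the hyaluronan receptor Cd44 by 3.86. Itga9 (-5.60), the syndecan gene Sdc3 (-5.27) and Itga5 (-2.73), the other classical fibronectin receptor subunit, were lower. In HEC against EC 8 of the 28 were higher (28.6%), near the 27.7% of all genes, among them Cd44 (6.08), Itga9 (4.80) and Sdc3 (3.32). Lower were 3 (10.7%), with Itga3 at -1.73, against 4.73% of all genes. Of 23 matrix proteases and inhibitors, 0 were higher and 12 lower (52.2%) in E10.5 cluster cells than in HEC, against 25.3 and 10.1% of all genes, with Mmp14 (-7.88), Mmp2 (-7.22) and Adamts1 (-5.14) among the 12. In HEC against EC 11 of the 23 were higher (47.8%) and 0 lower, against 27.7 and 4.73% of all genes, with Timp2 (5.29), Mmp14 (4.82) and Timp1 (4.14) among the 11. Of 33 other genes of vessel-wall matrix, Mmrn1 (2.83) was higher (3.03%) and 14 were lower (42.4%) in E10.5 cluster cells than in HEC, against 25.3 and 10.1% of all genes, with Mmrn2 (-10.76), Agrn (-8.81) and Fbn2 (-7.33) among the 14. In HEC against EC 12 of the 33 were higher (36.4%) and 2 lower (6.06%), against 27.7 and 4.73% of all genes. Vwf, the von Willebrand factor gene, was higher by 5.19, Agrn by 4.66 and Mmrn2 by 4.43, and Mmrn1 was lower with a difference of -4.13.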

How the data were processed

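Each sample was 1 sorted cell on 1 Affymetrix mouse array of 45101 probe sets, and the samples were grouped by the labels into the 5 populations. The deposited values are log2 expression values, for which the submitters' processing notes name GCRMA and affy as the authors' tools (their versions are not given in the sources used here). The deposited log2 values ran from 2.19 to 17.9, and 17.6% of them exceeded 5. The method removes a background modelled on probe sequence, so low values pile up at a floor, and a difference from that floor does not give the full size of a change. Control probe sets held shared values in many arrays (Dap 3' in 82 and Phe 3' in 65 of 85), so arrays may have been scaled to them, a step no source used here states.

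Gene symbols came from the platform annotation. Of all probe sets 34958 had 1 symbol and were used, giving 18194 genes, each read on its brightest probe set by the average of the 5 population means. The 57 genes matched 112 probe sets. Promoter windows from RefSeq (GRCm38.p6) were found for 41 of the 57 genes. Adjacent populations were compared by the difference of mean log2 values, with no test, since a population counts as 1 sample, and the number of arrays limits the precision. Described were genes above background in at least 50% of the cells of some population, and of each companion list the 3 largest positive and negative differences of at least 1 unit in HEC against EC and in E10.5 cluster cells against HEC, where the higher population had the gene above background in 50% of its cells or more. The companion lists covered collagen and laminin biosynthesis, matrix receptors, matrix proteases and inhibitors, and other vessel-wall matrix. The genes, lists and rules were chosen with earlier results of these data known. The calculation was tested on simulated data. Alternatives covered the scaling of arrays, the probe set, the mean or median over cells, the threshold, low values, and left-out cells or arrays. Python 3.11.15, pandas 2.3.3, numpy 2.4.6, scipy 1.17.1 and matplotlib 3.10.9 were used.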

Additional observations from a re-analysis of the deposited data

Results flagged for a closer look

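Among the 28 sets of values examined for a single cell standing apart (the described genes and counts in the 2 populations of 7 cells), 5 had a cell far below the rest. The nominal rate of about 1 in 20 by chance holds for independent sets of normally distributed values. It cannot be applied here, since low values pile up at a floor and the sets share the same cells. EC cell 3, the cell with germ-cell genes and no Cdh5, was at 2.46 for Col4a2, where the next EC was at 12.03, and at 2.33 for Nid1, where the next was at 10.51. The same cell had Fn1 at 13.51 and Lamb1 at 12.92, so not all of its matrix genes were low. EC cell 5, the array with the fewest probe sets above background in this population (3908), was at 3.62 for Lamc1, where the next EC was at 7.30. HEC cell 6 was at 2.33 for Lama4, where the next HEC was at 9.06, and was also at 2.33 for Lamb1. HEC cell 2 was at 8.79 for Sparc, where the next HEC was at 12.83. The part that the state of these cells or of their arrays has in the low values was not tested.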

How the results depend on the processing

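Alternatives other than leaving out single cells gave 177 values for counts and medians of the 57 genes or for genes per cell. Of these, 141 stayed close to the reported ones, as did 413 of the 443 for single genes. Close meant, for a count, that the larger exceeded the smaller by at most 50%. Medians, genes per cell and single-gene differences were close if they moved by less than the SD over cells. A share of FL HSC had to stay in its 95% interval. Close values could thus cross 1 unit, as Nid1 (0.28) and Col4a2 (0.90) did in HEC against EC without the 6 cells against their identity. From differences of at least 1 unit, 4 turned in sign, and sign changes of smaller ones were not counted. In E10.5 cluster cells against HEC, no gene was higher under any alternative run. The largest move was under scaling, in the count of genes lower in HEC than in EC. With arrays set to an equal median of their values above background, HEC had 8 genes higher and 30 lower than EC, with a median difference of -1.01, and all genes shifted by -1.01 as well. The medians of the other comparisons were then 0.43 for E10.5 cluster cells against HEC (all genes 0.47), 0.0006 for E12.5 against E10.5 cluster cells and 0.081 for FL HSC against E12.5 cluster cells. With quantile normalization HEC had 9 genes higher and 8 lower than EC (median 0), E12.5 had 3 higher and 1 lower than E10.5 cluster cells, FL HSC had 10 higher than E12.5 cluster cells (median 0.089), and the median of E10.5 cluster cells against HEC was -0.34. Genes above background per cell were then 14.4 in EC, 3.31 in E12.5 cluster cells and 7.81 in FL HSC. Lamc1 turned to -0.44 in HEC against EC and to 0.98 in E12.5 against E10.5 cluster cells. With medians over cells HEC had 9 genes higher and 1 lower than EC, E12.5 had 1 lower than E10.5 cluster cells, the median of E10.5 cluster cells against HEC was -0.044, and Fn1 (0.11) and Lamb1 (0.0145) turned in sign in E12.5 against E10.5 cluster cells. With 2 units in place of 1, HEC had 8 genes higher and 1 lower than EC, and 0 were lower in E12.5 than in E10.5 cluster cells. With the mean of all probe sets of a gene, 3 genes were lower in HEC than in EC and 0 in E12.5 than in E10.5 cluster cells. In E10.5 cluster cells against HEC, Lamc1 then moved to -1.85, Nid1 to -3.47, Lama4 to -3.49 and Fn1 to -4.28. Sparc moved to -5.34 and Col5a2 to -5.80, and Hspg2 to -3.64, farther from 0 than on its brightest probe set. With only genes above background in at least 3 cells, 3 were lower in HEC than in EC, and the medians were 1.34 for HEC against EC, -2.93 for E10.5 cluster cells against HEC, -0.15 for E12.5 against E10.5 cluster cells and 0.39 for FL HSC against E12.5 cluster cells; fewer genes enter there by construction. With only the 62 arrays that hold both controls at their shared values, 7 genes were lower in E12.5 than in E10.5 cluster cells and 1 was lower in FL HSC than in E12.5 cluster cells. A threshold of 4 or 7 in place of 5 gave 3.81 or 0.875 genes per E12.5 cluster cell. The cause of these shifts was not tested.

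Leaving out each EC and HEC in turn gave 12 to 15 genes higher and 3 to 5 lower in HEC than in EC, with 3 lower without EC cell 7 or HEC cell 6, and medians of -0.04 to -0.01. It gave 16 to 19 genes lower in E10.5 cluster cells than in HEC, 0 higher, and medians of -0.08 to -0.06. Genes per cell ran from 11 to 12.3 in EC and from 13.3 to 14.3 in HEC. Chosen after seeing the data were the use of the probe set with the widest range of population means, the omission of Hspg2 and Col16a1, and that of E10.5 cluster cells 17 and 26, which left 1 gene lower in E12.5 than in E10.5 cluster cells. No paired analysis was possible because the numbers of the cells pair no cells across populations and no test was made. With 7 cells in EC and in HEC, differences between them rest on few arrays, and a value near the floor gives no upper limit for the RNA of a single cell.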
